A study of Mus musculus with 8 samples.

Results

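The histone genes of the mouse were followed in RNA from the buffy coat, the layer of white cells and platelets that forms when blood is centrifuged. Members were the 82 protein coding genes that GENCODE M21 names Hist1h, Hist2h, Hist3h, Hist4h, H2af, H3f3 or H1f, out of 35944 genes with a row in the summed table. Of these, 67 carry a cluster name (Hist1h to Hist4h) and are called replication-linked here, and 15 carry an H2af, H3f3 or H1f name and are called replacement. The replication-linked genes comprised 6 of H1, 18 of H2A, 18 of H2B, 12 of H3 and 13 of H4. The replacement genes comprised 4 of H1, 9 of H2A and 2 of H3. Each group held 4 libraries from mice after 24 weeks. One group was exposed to PM2.5, fine airborne particulate matter (replicates 9, 17, 18 and 21), and the other received PBS, a buffered saline that served as the control (replicates 4, 10, 12 and 16). The sources used here give no strain, sex, age, dose or route. They also do not say that each library came from its own animal, so a p-value reflects only variation among these libraries, which may be in part technical.

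DNA in the nucleus is wound around octamers made of pairs of H2A, H2B, H3 and H4, and H1 binds the linker DNA between them. Replication-linked genes are transcribed in S phase, lie in clusters, mostly lack introns, and give mRNAs that end in a conserved stem-loop in place of a poly(A) tail. Replacement genes are transcribed through the cell cycle and in cells that no longer divide, have introns in most cases, and give polyadenylated mRNAs. Some cluster genes also give spliced or polyadenylated mRNAs in differentiated cells. Mature granulocytes, resting lymphocytes, platelets and red cells do not replicate DNA.

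Haemoglobin genes took 82.3% to 88.6% of all counts, which left 9637639 to 12752766 counts per library for all other genes. Levels are given as CPM, counts relative to library size after TMM scaling, which sets libraries to a common level by the bulk of their genes. Summed CPM of 8 measured erythroid markers ran from 13292 to 28638, and those of 7 platelet markers from 449 to 900. White cell markers were present at lower levels. Neutrophil markers (8 genes) summed to 28.5 to 55.9 CPM with PM2.5 and 14.0 to 27.5 with PBS, and B cell markers (8 genes) to 32.7 to 42.4 and 39.7 to 64.2. The early granule genes of immature neutrophils (7 genes, 3 of them at 0 counts in every library) summed to at most 0.297 CPM. PM2.5 replicates 17 and 18 stood apart from the other 6 libraries. They had the highest erythroid sums. The neuronal genes Snap25, Syt1 and Camk2a, picked after their values were seen from a list of 7 brain markers, were at 0.37 to 1.79 CPM in them and at 0.04 or less elsewhere. The sum of that list, most of it Nrgn, did not set them apart (48.2 and 74.7 CPM, against 37.1 to 85.2 in the other 6). In bulk RNA, fewer cells of a type and less RNA per cell cannot be told apart.

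The stem-loop was matched in 44 of the 67 replication-linked genes and in the replacement gene H2afx. Its forms are shown because they set the H4 matches apart from the other replication-linked matches. Transcripts were searched in the sense direction for the consensus of the histone 3′ stem-loop, 16 bases with some positions left free. It occurred in 111 of 141767 GENCODE transcripts (0.0783%) and in 82 of 55450 genes (0.148%), and 45 of those genes were members. The matches covered 44 of the 67 replication-linked genes (4 of H1, 11 of H2A, 10 of H2B, 9 of H3 and 10 of H4). H2afx was the single replacement gene with a match. Each form below is written in the sense direction, with the 6 bases of each stem arm in capitals and the 4 bases of the loop in lower case.
Form of 26 H1, H2A, H2B and H3 genes: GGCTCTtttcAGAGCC
Form of 6 H1, H2B and H3 genes: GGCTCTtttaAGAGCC
Form of Hist2h2ac: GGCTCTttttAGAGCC
Form of Hist1h3g: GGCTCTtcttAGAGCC
Form of 7 H4 genes: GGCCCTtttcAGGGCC
Form of Hist1h4i and Hist2h4: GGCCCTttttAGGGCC
Form of Hist1h4a: GGCCCTtctcAGGGCC
Form of H2afx: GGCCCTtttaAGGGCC
All 10 H4 matches had the GGCCCT arm, and all 34 matches in replication-linked H1, H2A, H2B and H3 had the GGCTCT arm. H2afx, which encodes the H2A.X variant that is phosphorylated beside DNA breaks, had the arm of the H4 genes. A missing match says only that these letters are not in the annotated transcript: 17 replication-linked genes have a transcript with under 16 bases annotated after the stop codon.

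The largest share of replication-linked counts lay on transcripts that GENCODE extends well past the stem-loop. Transcripts whose stem-loop sits over 100 bases before the annotated end (24 transcripts of 22 genes) took 49.3%, 50.8%, 48.5% and 51.4% of replication-linked counts in PM2.5 replicates 9, 17, 18 and 21 and 55.9%, 52.0%, 52.0% and 55.1% in PBS replicates 4, 10, 12 and 16. The groups did not overlap in this share, and no test is given for a sum over members. Hist1h1c, an H1 linker histone gene, was the largest of these, and its single exon of 1560 bases is annotated 840 bases past its stem-loop. Hist1h2ac runs on for 2010 bases and Hist3h2a for 1643. Transcripts that end within 100 bases of the stem-loop, the form of a classical histone mRNA, took 20.9% to 27.2% (22 genes, led by Hist2h2aa2, which ends 35 bases after it). Transcripts with no match and at least 16 bases after the stop codon took 17.9% to 24.9% (10 genes), most of it on Hist1h2bc, an H2B gene whose transcript has 2 exons and 742 bases after its stop codon. Transcripts with under 16 bases after the stop codon took 2.03% to 3.36% (17 genes). The deposited table gives a total per transcript and not the position of reads, so these shares follow the annotation and do not show where any RNA ended. Whether poly(A) selection or rRNA depletion was used is not given in the sources used here.

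**Figure D1:**
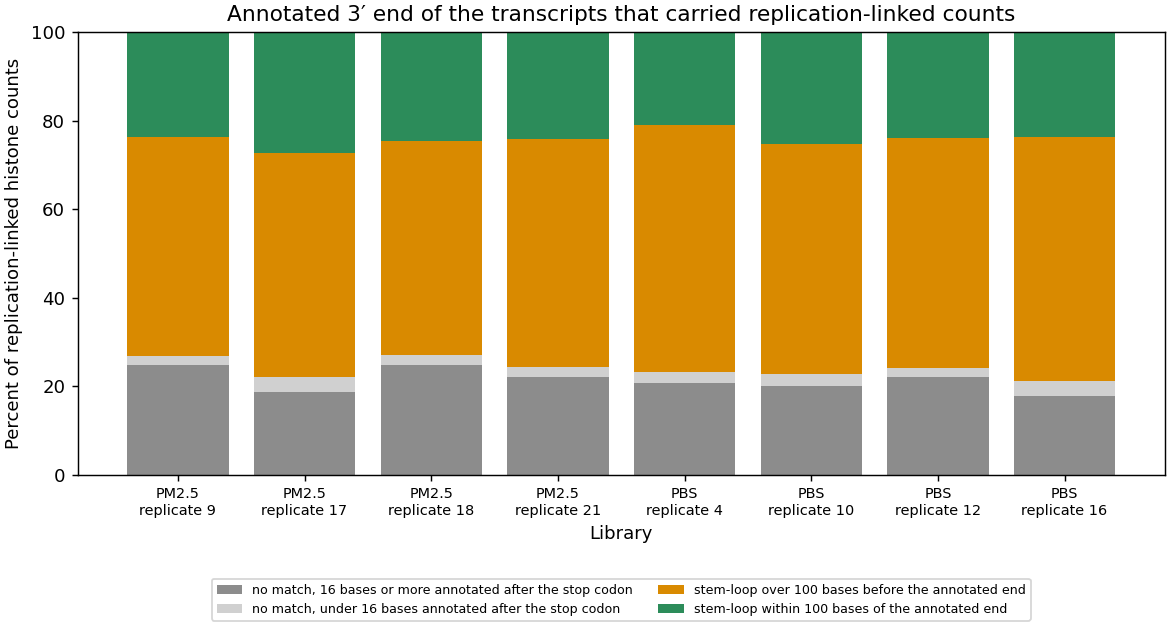
Percent of replication-linked histone counts (vertical axis) in each of the 8 libraries (horizontal axis), stacked by the annotated 3′ end of the transcript that carried them. Transcripts annotated over 100 bases past the stem-loop hold 48.5% to 55.9% in every library, lower in the 4 PM2.5 libraries (48.5% to 51.4%) than in the 4 PBS libraries (52.0% to 55.9%), and the groups overlap in the other 3 kinds.

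Promoter windows of 300 bases (RefSeq, GRCm38.p6, around the start of transcription) were found for 62 replication-linked and 14 replacement genes and searched on both strands. TATAAA was in 35 of 62 replication-linked genes (56.5%), in 1 of 14 replacement genes and in 15.7% of all 27025 genes with a window. CCAAT was in every replication-linked H1, H2A, H2B and H3 gene with a window and in 3 of 12 H4 genes (25%). It was also in 10 of 14 replacement genes (71.4%) and in 41.1% of all genes. The octamer ATTTGCAT was in 7 H2A and 7 H2B genes, in no replication-linked H1, H3 or H4 gene, and in 1.97% of all genes. These are counts of genes and not of separate sites. Windows of divergent neighbours overlap, and Hist1h2aa with Hist1h2ba, Hist1h2ae with Hist1h2bg, and Hist1h2ah with Hist1h2bk each share an octamer. These matches are letters in a window and no evidence of binding. The windows of 3 genes are printed because the results below turn on these genes: both genes of the H3.3 variant, whose levels differ most, and Hist1h2ac, an H2A gene that is the divergent neighbour of Hist1h2bc. Matches of the 3 motifs on either strand are in capitals, so a motif on the other strand appears as its reverse complement, and each window reads 5′ to 3′ along its gene.
H3f3a, chr1:180813556-180813855, minus strand: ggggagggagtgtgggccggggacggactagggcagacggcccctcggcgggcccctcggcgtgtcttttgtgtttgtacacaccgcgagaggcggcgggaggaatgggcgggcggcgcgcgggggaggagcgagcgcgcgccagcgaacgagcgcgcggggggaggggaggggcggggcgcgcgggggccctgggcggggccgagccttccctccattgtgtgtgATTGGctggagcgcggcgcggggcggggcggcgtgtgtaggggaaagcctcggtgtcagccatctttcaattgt
H3f3b, chr11:116024455-116024754, minus strand: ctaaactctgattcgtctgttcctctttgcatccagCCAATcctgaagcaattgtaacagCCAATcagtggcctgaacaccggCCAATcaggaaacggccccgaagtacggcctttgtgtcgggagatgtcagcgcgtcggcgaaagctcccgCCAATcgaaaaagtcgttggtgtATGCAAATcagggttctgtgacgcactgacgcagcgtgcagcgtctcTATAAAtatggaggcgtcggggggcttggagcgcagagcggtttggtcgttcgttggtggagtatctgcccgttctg
Hist1h2ac, chr13:23683910-23684209, minus strand: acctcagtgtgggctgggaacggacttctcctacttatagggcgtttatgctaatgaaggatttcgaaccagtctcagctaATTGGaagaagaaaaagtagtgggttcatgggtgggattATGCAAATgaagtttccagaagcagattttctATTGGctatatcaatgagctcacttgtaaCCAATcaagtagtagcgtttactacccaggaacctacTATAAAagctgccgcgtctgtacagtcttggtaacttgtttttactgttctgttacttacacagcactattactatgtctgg
H3f3b was the single replacement gene whose window held TATAAA and the single one whose window held the octamer. In that respect its window held the same 3 motifs as that of Hist1h2ac, while the window of H3f3a held CCAAT alone.

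H3f3a (chr1:180800832-180813943, GRCm38), one of the genes of the H3.3 variant, was the most abundant histone gene in every library. Its level per transcript length, as the deposited FPKM (fragments relative to transcript length and library size) summed over its transcripts, was 725, 651, 639 and 730 in PM2.5 replicates 9, 17, 18 and 21, and 888, 876, 733 and 873 in PBS replicates 4, 10, 12 and 16. H3f3b (chr11:116021912-116027962), which encodes the same protein, was at 10.7, 5.45, 6.46 and 7.60 FPKM with PM2.5 and at 17.9, 12, 5.93 and 11.5 with PBS. The FPKM of H3f3a was thus 49.7 to 124 times that of H3f3b within a library, with the highest ratio in PBS replicate 12. H3f3a took 92.7% to 96.1% of all replacement counts. Its counts lay on 3 annotated coding transcripts, with 44.8%, 33.7% and 21.5% of the gene's total. Next in FPKM, as a mean of all 8 libraries, came Hist2h2aa2 at 78.7, Hist1h4m at 41.7, Hist1h1c at 40.9 and Hist1h2bc at 32.2. Their FPKM ran from 49.2 to 114, 24.1 to 76.7, 22.4 to 74.7 and 16.2 to 50.8 across libraries, so these neighbours overlapped, whereas the lowest H3f3a value lay above the highest value of any of them.

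**Figure D2:**
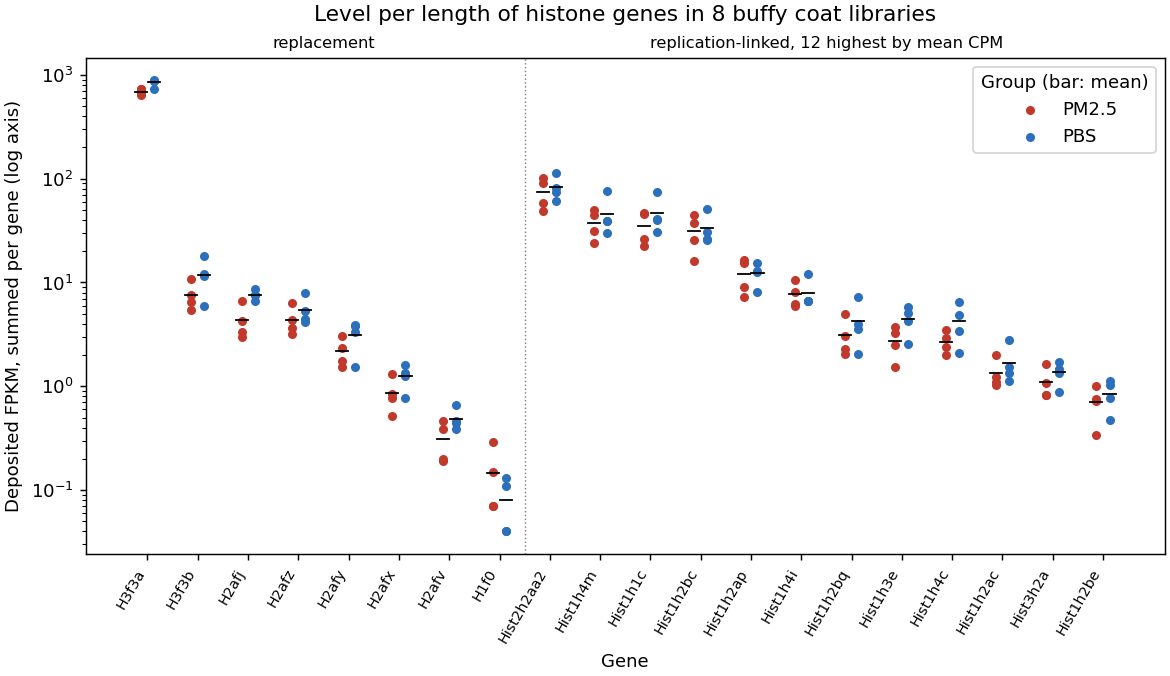
Deposited FPKM summed per gene (vertical log axis) for the 8 replacement genes that passed the count filter and the 12 replication-linked genes with the highest mean CPM (horizontal axis). Points are single libraries, red for PM2.5 and blue for PBS, and bars are means of 4. H3f3a lies between 639 and 888, above every other histone gene, and FPKM is lower with PM2.5 than with PBS for most genes, a direction that depends on the scaling.

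Between groups, H3f3a gave opposite directions on the CPM and FPKM scales. In TMM-scaled libraries it was at 421, 649, 646 and 487 CPM with PM2.5 (551 ± 115, SD, n = 4) and at 381, 414, 588 and 438 CPM with PBS (455 ± 91.3). These groups overlapped, and the log2 fold change of 0.27 (SE 0.24, 95% interval -0.24 to 0.79) did not pass edgeR's test (adjusted p = 0.563). On the deposited FPKM scale the 4 PM2.5 libraries all lay below the 4 PBS libraries, and limma gave a log2 difference of -0.29 (adjusted p = 0.23). That value was near the median of all 3658 genes in the limma fit, -0.28, and only 301 of those genes were positive. The share of all genes without overlap in FPKM is not given here. The 3 libraries with the highest H3f3a CPM (PM2.5 replicates 17 and 18 and PBS replicate 12) were also those with the highest erythroid marker sums, at 28638, 28570 and 21807 CPM against 13292 to 17518 in the other 5. Both levels carry the same TMM scaling. On the FPKM scale, by contrast, H3f3a was lower in PM2.5 replicates 17 and 18 (651 and 639) than in 9 and 21 (725 and 730). PBS replicate 12, at 733 FPKM, was the lowest control. With the erythroid level as a covariate the log2 fold change of H3f3a was -0.07 (edgeR adjusted p = 0.94). When PM2.5 replicates 17 and 18 were left out, the value was -0.00074 (edgeR adjusted p = 0.999). Over all genes these fits called 0 of 10361 and 8 of 11137. The part of erythroid RNA in the H3f3a level was not tested. H3f3b did not share the order of libraries that H3f3a had in CPM: its highest CPM, 16.9, came from PBS replicate 4 and its lowest, 10.7, from PBS replicate 12. The group means of H3f3b were 13.9 ± 1.29 and 13.8 ± 2.53 CPM, with a 95% interval of the log2 fold change from -0.36 to 0.39.

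**Figure D3:**
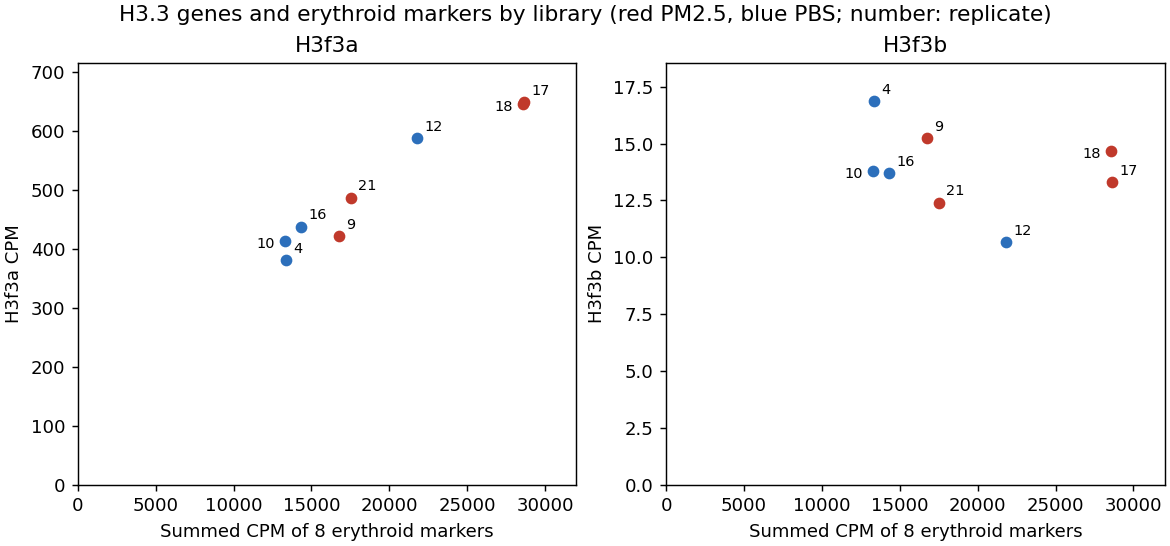
CPM of H3f3a (left) and H3f3b (right) on the vertical axes against the summed CPM of 8 erythroid markers on the horizontal axes, 1 point per library (red PM2.5, blue PBS, labelled by replicate). H3f3a is highest in the 3 libraries with the highest marker sums (PM2.5 replicates 17 and 18 and PBS replicate 12), and H3f3b is not. Both axes carry the TMM scaling, and in FPKM these libraries hold the lowest H3f3a values of their groups.

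The other replacement genes were far lower, and none was called. H2afj, which encodes the H2A.J variant found in mammals, was at 3.73, 4.67, 6.77 and 7.54 CPM with PM2.5 and at 5.16, 5.30, 7.20 and 6.14 with PBS, so PM2.5 values lay on both sides of the control range. H2afz and H2afv encode the H2A.Z forms that mark promoters. H2afz was at 4.37, 3.81, 4.33 and 3.40 CPM with PM2.5 and at 4.0, 3.0, 3.83 and 2.64 with PBS (edgeR adjusted p = 0.45), and H2afv at 0.425 ± 0.0824 and 0.399 ± 0.0549 CPM. H2afy, the gene of the large macroH2A variant of silent chromatin, was at 2.43 ± 0.350 and 2.68 ± 0.276 CPM, with 52.9% of its counts on 1 coding transcript. H2afx was at 1.13 ± 0.361 CPM with PM2.5 and 1.09 ± 0.188 with PBS.

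H1f0, the linker histone gene of differentiated and non-dividing cells, had the largest fold change of all members tested and very few counts. It had 37, 11, 10 and 23 counts in PM2.5 replicates 9, 17, 18 and 21 and 16, 6, 6 and 16 in PBS replicates 4, 10, 12 and 16. On the TMM scale these were 0.461, 0.202, 0.185 and 0.273 CPM against 0.146, 0.056, 0.081 and 0.145 CPM, and the groups did not overlap. The log2 fold change was 1.38 (SE 0.45, 95% interval 0.45 to 2.32) and edgeR's adjusted p was 0.124, so H1f0 was not called. It stayed positive under the other scalings, at 0.88 with library totals and 1.11 with haemoglobin removed. The remaining replacement genes did not pass the filter on low counts. H1fx and H2afy2 had at most 1 count in a library, and H1fnt, H1foo, H2afb1, H2afb2 and H2afb3, genes known from germ cells, had 0 in all 8, which allows up to 3 counts in a library.

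Among the replication-linked genes, Hist1h1c, Hist1h2bc and Hist2h2aa2 took 60.2% to 69.2% of the counts in each library. Hist1h1c (chr13:23738808-23740367) was at 51.8, 44.0, 51.5 and 59.8 CPM with PM2.5 and at 62.5, 37.1, 47.0 and 40.6 with PBS. The control range enclosed all 4 PM2.5 values, and the log2 fold change was 0.15 (SE 0.21, edgeR adjusted p = 0.732). Hist1h2bc (chr13:23684199-23692908) was at 34.8, 21.8, 34.2 and 32.8 CPM with PM2.5 and at 29.0, 19.3, 26.5 and 17.5 with PBS. Of its PM2.5 values, 3 lay above all controls, while that of replicate 17 lay among them, and the log2 fold change of 0.42 (SE 0.21) did not pass (edgeR adjusted p = 0.302). Hist2h2aa2 (chr3:96239749-96240276), an H2A gene, was at 21, 17.9, 21.2 and 21.1 CPM with PM2.5 and at 17.8, 14.1, 17 and 13.6 with PBS. Its groups just failed to overlap, and the log2 fold change of 0.38 (SE 0.17) did not pass (edgeR adjusted p = 0.254). With library totals the log2 fold changes of Hist1h1c, Hist1h2bc and Hist2h2aa2 were -0.42, -0.11 and -0.17.

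Of the other 9 replication-linked genes named for their level, 7 had positive log2 fold changes on the TMM scale (0.24 to 0.49) and none was called. Hist1h4i, an H4 gene, was at 4.07, 3.99, 4.22 and 3.5 CPM with PM2.5 and at 3.44, 2.13, 3.47 and 2.21 with PBS, without overlap (edgeR adjusted p = 0.176). Hist1h2ap, an H2A gene, was at 2.54, 2.66, 2.11 and 3.10 CPM with PM2.5 and at 1.64, 2.12, 1.81 and 1.86 with PBS, and only the lowest PM2.5 value reached into the control range. It had the smallest adjusted p of the replication-linked genes (0.139, edgeR). Hist1h4m was at 4.73 ± 0.467 and 4.0 ± 1.16 CPM, Hist1h2ac at 3.53 ± 0.798 and 2.93 ± 0.768, and Hist3h2a at 2.38 ± 0.313 and 2.02 ± 0.139. The H2B genes Hist1h2be and Hist1h2bq were at 1.79 ± 0.554 and 1.45 ± 0.263 and at 1.82 ± 0.456 and 1.28 ± 0.501. Hist1h3e, an H3 gene, and Hist1h4c, an H4 gene, had negative values of -0.12 and -0.05. Of these 7 positive genes, all 7 turned negative with library totals (-0.35 to -0.06).

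No histone gene was called in the comparison of PM2.5 with PBS. Of the 82 members, 63 passed the filter (55 replication-linked and 8 replacement), and 0 of 63 had an edgeR adjusted p under 0.05, beside 166 of 10361 genes tested overall (1.6%). At an unadjusted edgeR p under 0.05 on the TMM scale, 10 members were higher and 0 lower, beside 8.79% higher and 9.24% lower among all genes. The 10 were H1f0, Hist1h2ae, Hist1h2ap, Hist1h2bf, Hist1h2bk, Hist1h4b, Hist1h4i, Hist2h2aa1, Hist2h2aa2 and Hist2h4. With library totals, 0 replication-linked genes were higher and 2 lower, beside 27 and 2708 of all 10361 genes. With haemoglobin removed, 0 replication-linked genes were higher and 1 lower, beside 66 and 2003 of 10329. The replacement genes had 0 higher and 1 lower with totals, and 1 and 0 with haemoglobin removed. Groups did not overlap on the TMM scale for 5 of the 63 members tested, all higher with PM2.5 (H1f0, Hist1h2ae, Hist1h2bk, Hist1h4i and Hist2h2aa2), beside 9.66% of all genes (3.02% higher and 6.64% lower). Hist1h4a, which did not pass the filter (2 to 25 counts), was also apart and higher. DESeq2 called 0 of 64 replication-linked and 0 of 10 replacement genes, beside 371 of all 18014. At an unadjusted DESeq2 p under 0.05 there were 8 and 1, beside 2056 of all genes. Limma on log2(FPKM + 1) called 0 of 48 and 0 of 6, beside 0 of all 3658. At an unadjusted limma p under 0.05 there were 2 and 2, all lower, beside 716 of all genes, of which 707 were lower.

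The median log2 fold change of the replication-linked genes lay above that of all genes under each of 4 scalings, while its sign depended on the scaling. A change of library scaling moves all genes by nearly the same amount, so these 4 gaps are not separate observations. The limma fit also covered fewer of these genes (48), and its gap was the smallest of the 4, at 0.09. Their median was 0.24 on the TMM scale, where 42 of 55 were positive and 13 negative, beside 0.04 for all genes tested, of which 45.6% were negative. With library totals the medians were -0.33 and -0.52, with haemoglobin removed -0.05 and -0.30, and on log2(FPKM + 1) with limma -0.18 and -0.28. The replacement genes had a median of 0.08 on the TMM scale, -0.49 with library totals, -0.27 with haemoglobin removed and -0.33 with limma on log2(FPKM + 1). By family on the TMM scale, the replication-linked medians were -0.04 for H1 (5 genes tested), 0.30 for H2A (14), 0.42 for H2B (13), 0.10 for H3 (12) and 0.19 for H4 (11). Without PBS replicate 10 the replication-linked median fell to 0.16, with 32 of 57 genes positive. Without PM2.5 replicates 17 and 18 it was 0.24, and with an erythroid covariate the replication-linked median was 0.14 beside 0.02 for all genes. The members share a scaling, a chromosome cluster and in part their reads, so they are not replicates of the condition.

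**Figure D4:**
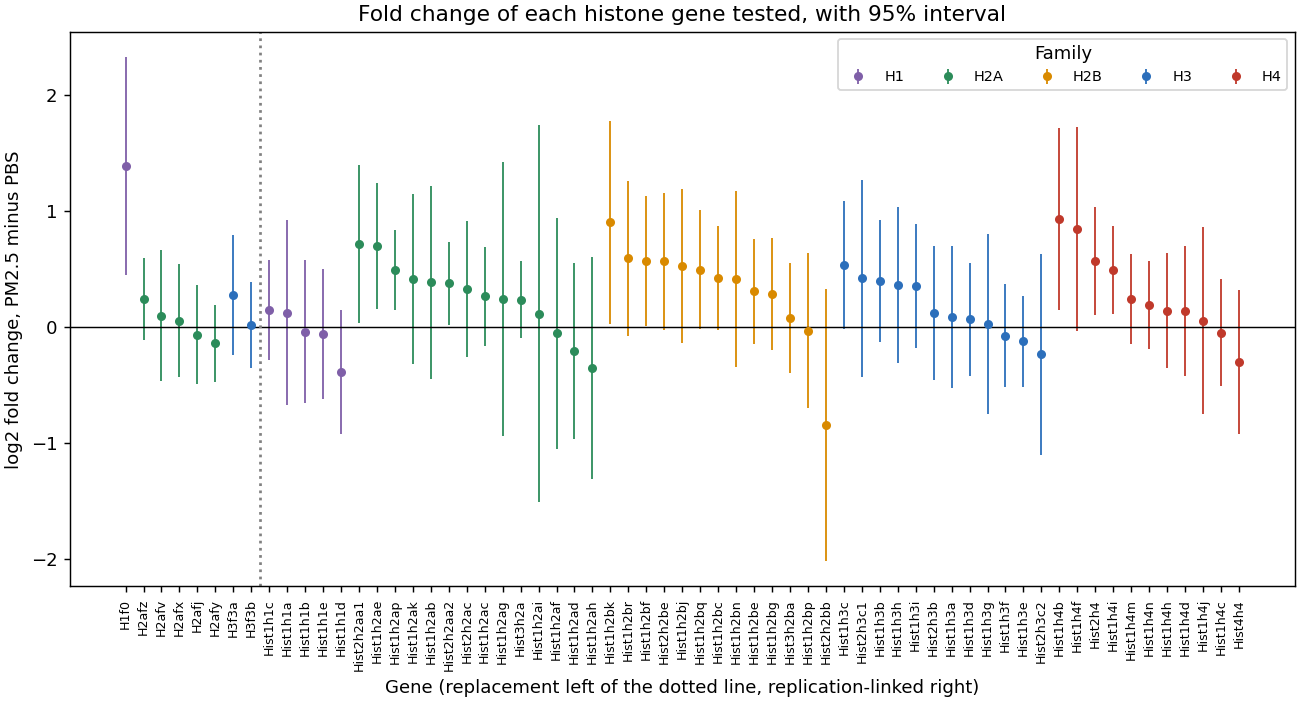
Log2 fold change, PM2.5 minus PBS, of each of the 63 histone genes tested (vertical axis; points with 95% intervals, coloured by family) in TMM-scaled libraries, by gene (horizontal axis). H1f0 is the highest at 1.38, H2B genes have a median of 0.42 and H1 cluster genes one of -0.04, and no gene passed the adjusted threshold.

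The extremes of the replication-linked genes were low in counts, apart from Hist1h1d. Highest were Hist1h4b at 0.93 (SE 0.37, 13 to 42 counts per library), Hist1h2bk at 0.90 (SE 0.42, 7 to 24 counts) and Hist1h4f at 0.84 (SE 0.42, 7 to 32 counts). Lowest were Hist2h2bb at -0.85 (SE 0.56, 2 to 34 counts), Hist1h1d, an H1 gene, at -0.39 (SE 0.26, 66 to 270 counts) and Hist1h2ah at -0.35 (SE 0.45, 8 to 31 counts). None of the 6 had an edgeR adjusted p under 0.213. Hist1h2ah and Hist1h2bk lie side by side on opposite strands, and stood at opposite ends of this order. Hist2h2bb had 34 of its counts in PBS replicate 16 and 7 to 12 in the other control libraries.

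Summed over their members, the classes differed in what set their level. Replication-linked counts were 0.0781% to 0.136% of counts outside haemoglobin, and replacement counts 0.354% to 0.430%. On the TMM scale the replication-linked sum came to 155 ± 11.9 CPM with PM2.5 and 129 ± 21.7 with PBS, with overlap, and the replacement sum 578 ± 115 and 482 ± 89.9. Other scales gave the opposite order. Replication-linked FPKM summed to 303 ± 90.9 with PM2.5 and 358 ± 106 with PBS, and replacement FPKM to 706 ± 52.9 and 873 ± 80.8. As shares of counts outside haemoglobin, the replication-linked means were 0.106% and 0.111% and the replacement means 0.382% and 0.409%. Within a library, which no scaling between libraries touches, replacement counts were 2.85, 4.87, 4.26 and 3.09 times the replication-linked counts with PM2.5 and 2.60, 4.10, 4.6 and 3.90 times with PBS. The group means of this ratio, 3.77 ± 0.958 and 3.80 ± 0.851, were closer than the spread within either group. H3f3a made up nearly all of the replacement side of this ratio: without it, the replacement sum was 27.8 ± 1.53 and 27.4 ± 1.95 CPM. Replication-linked counts were then 5.77, 5.32, 5.35 and 5.84 times the replacement counts without H3f3a in the PM2.5 libraries and 5.24, 4.05, 5.21 and 4.39 times in the PBS libraries. These groups did not overlap, by a margin smaller than either SD (0.271 and 0.597); the split without H3f3a was chosen after its values were seen, and no test is given. Neutrophil and monocyte markers were higher with PM2.5 and B cell markers lower (5 of 8, 3 of 7 and 3 of 8 called by edgeR, beside 0.463% higher and 1.14% lower among all genes), and their part in these ratios was not tested.

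**Figure D5:**
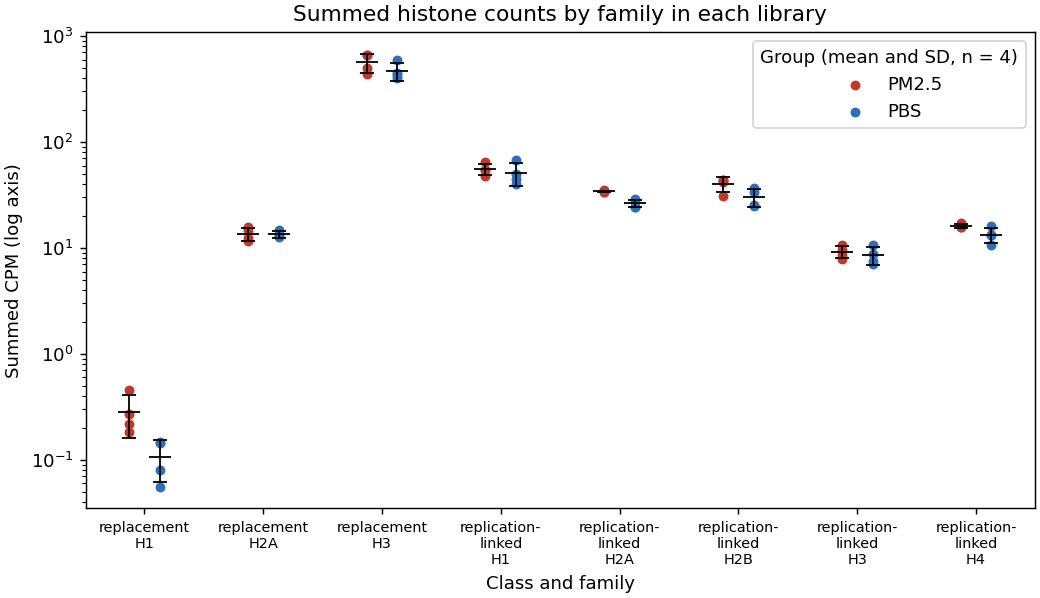
Summed CPM of the members of each class and family (horizontal axis) on a vertical log axis in TMM-scaled libraries; points are libraries (red PM2.5, blue PBS), with the mean and SD of 4. Replacement H3, almost all of it H3f3a, lies at 398 to 662, and replication-linked H2A is the one cluster family whose groups do not overlap on this scale (33.6 to 35.0 against 24.6 to 29.1), while its mean FPKM is lower with PM2.5 (112 against 124).

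Each core family was present from the clusters. On the TMM scale, replication-linked H1 summed to 55.3 ± 6.87 CPM with PM2.5 and 50.7 ± 12.1 with PBS, H2A to 34.2 ± 0.651 and 26.4 ± 2.21, H2B to 40.2 ± 6.50 and 30.4 ± 5.99, H3 to 9.21 ± 1.16 and 8.54 ± 1.61, and H4 to 16.3 ± 0.680 and 13.4 ± 2.18. On the deposited FPKM scale all 5 means were lower with PM2.5, at 37.7, 112, 57.7, 24.0 and 71.7 against 50.7, 124, 66.1, 30.8 and 85.7, with SDs of 5.31 to 32.3. Cluster H3 was thus the lowest of the families by counts, and H3.3 genes held most H3 counts in every library. Of the 67 replication-linked genes, 12 did not pass the filter. Hist1h1t, Hist1h2aa and Hist1h2ba, known from testis, had 0 counts in all libraries, and the other 9 had at most 33 counts in any library.

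Cluster genes resemble one another, which limits how far single genes can be told apart. The share of a gene's 50-base words found in no other gene's transcript had a median of 47.7% (0% to 100%) over the replication-linked genes tested and of 95.8% (83.1% to 100%) over the replacement genes tested. Hist2h2aa2 had no such word at all, since Hist2h2aa1 has the same coding sequence, so the division of reads between these copies (17.9 to 21.2 CPM against 1.10 to 3.26 with PM2.5) is uncertain. Identical coding sequences also paired Hist1h2ao with Hist1h2ap, Hist1h2bq with Hist1h2br, Hist1h4m with Hist1h4n and Hist2h3c1 with Hist2h3c2. Hist1h2ao was at 0 counts in 5 libraries while Hist1h2ap had over 100 in each. Hist1h1c (91.5% of words of its own), Hist1h2bc (69.9%) and Hist1h4i (71.1%) rest on more distinct sequence. Among the 27 replication-linked genes with at least 50% of words of their own, a subset chosen after seeing the data, the median log2 fold change on the TMM scale was 0.14.

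Genes that process histone mRNA, deposit histones or act in replication were measured in the same fit, and 0 of 55 tested were called by edgeR. At an unadjusted p under 0.05 the counts were 1 of 10 for stem-loop mRNA processing, 4 of 23 for deposition and exchange, and 5 of 22 for replication and proliferation, beside 18% of all genes. Their median log2 fold changes were -0.10, 0.04 and 0.17 on the TMM scale. DESeq2 called 2 of 58 (Atrx and Cdt1), beside 371 of all 18014 genes. Limma on log2(FPKM + 1) called 0 of 22, beside 0 of all 3658.

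In the processing list the 3 smallest p belonged to Casp8ap2 (FLASH, which joins the cleavage complex), Cstf2 (a cleavage factor subunit) and Npat (which activates histone gene transcription). Casp8ap2 was at 0.896, 0.880, 0.611 and 1.28 CPM with PM2.5 and at 1.27, 1.39, 1.40 and 1.18 with PBS (edgeR adjusted p = 0.237). Cstf2 was at 0.995 ± 0.148 and 1.27 ± 0.170 CPM and Npat at 0.741 ± 0.140 and 0.853 ± 0.163. Slbp, the stem-loop binding protein, is given here outside the naming rule, and stood at 0.563 ± 0.148 and 0.654 ± 0.0814 CPM.

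In the deposition list Atrx, which with Daxx places H3.3 at repeats, was at 5.13, 4.75, 5.31 and 5.58 CPM with PM2.5 and at 7.51, 9.24, 7.56 and 6.10 with PBS. All 4 PM2.5 values lay below all controls, with a log2 fold change of -0.55 (SE 0.16, edgeR adjusted p = 0.0954). DESeq2 gave an adjusted p of 0.0131 for Atrx. Srcap, the exchange enzyme for H2A.Z, was at 6.33 ± 0.209 CPM with PM2.5 and 8.38 ± 1.26 with PBS, again without overlap (edgeR adjusted p = 0.196). Asf1a, an H3 and H4 chaperone, was at 1.62 ± 0.438 and 1.13 ± 0.203 CPM (edgeR adjusted p = 0.214).

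In the replication list Cdt1, which loads the replicative helicase, was at 1.26, 0.550, 0.777 and 0.653 CPM with PM2.5 and at 1.31, 1.83, 1.66 and 1.23 with PBS. Replicate 9 alone of the PM2.5 libraries reached the control range. The log2 fold change of -0.88 (SE 0.24) had an edgeR adjusted p of 0.0784, and of 0.0163 without that library. Cdt1 was not called with any other single library left out. Without PM2.5 replicates 17, 18 and 21 in turn, the smallest edgeR adjusted p of any partner gene was 0.174, 0.172 and 0.136. With the erythroid covariate it was 0.451. DESeq2 gave an adjusted p of 0.0464. Pola1, the catalytic subunit of the polymerase that starts DNA strands, was at 3.87 ± 0.909 and 2.64 ± 0.718 CPM (edgeR adjusted p = 0.169), and Ccne2, a cyclin of S phase entry, at 3.22 ± 0.756 and 2.18 ± 0.738 (edgeR adjusted p = 0.195, and 0.0495 without PBS replicate 12). PM2.5 replicate 18 had the highest value of both genes, and among the controls PBS replicate 12 did. Ccne2 was called in no fit but the one without PBS replicate 12. The erythroid marker sums of these libraries were 28570 and 21807 CPM, and the part of erythroid RNA in these levels was not tested.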

How the data were processed

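Total RNA of 8 buffy coat libraries was random primed and strand marked, per the labels' protocols. HISAT2 2.0.1, cutadapt 1.9.1 and bcl2fastq 2.17.1.14, with GRCm38, appear in the submitters' processing notes. The tool that counted and its strand setting: not given in the sources used here. Overlapping and antisense genes may therefore share reads. The authors deposited expected counts, of which 24.4% are not whole, and FPKM values scaled by length and library, per the file headers, for 118783 transcripts. Matching by identifier placed 116710 of them in 35944 genes of GENCODE M21, and the 2073 left out held 0.0266% to 0.0532% of counts. Totals were 72081019 to 89032794 per library. Gene sums were rounded and compared with edgeR 4.0.16 under R 4.3.3, two-sided (quasi-likelihood test, filterByExpr with minimum count 10 and total 15, TMM, Benjamini-Hochberg over 10361 genes, threshold 0.05). The SE is the log2 fold change over the square root of F. Limma 3.58.1 on log2(FPKM + 1), DESeq2 1.42.0 and other scalings were alternatives. The procedure was run on simulated data drawn on the TMM scale, which cannot bear on the choice of scaling. Every pair of libraries differed by more than sampling noise.

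Members, gene lists, tests and rules were chosen with earlier results of these data known. Named were all replacement genes past the filter, the 12 replication-linked genes with the highest mean CPM, the 3 highest and 3 lowest log2 fold changes among them, any gene called, and the 3 smallest p in each partner list. Genes listed only for groups that did not overlap, an unadjusted p, identical sequence or low counts, and Slbp, were named after their values were seen. Stem-loops come from GENCODE M21 transcripts and promoters from RefSeq GRCm38.p6, where 76 of 82 members had a window.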

Additional observations from a re-analysis of the deposited data

Results flagged for a closer look

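Within each group of 4 libraries, a value was singled out where its gap to the nearest other value, divided by the range of the group, was above Dixon's 95% critical value for 4 samples. Of 70 such groups looked at, 3 had such a value, and chance alone gives about 1 in 20. Hist1h2bc was at 21.8 CPM in PM2.5 replicate 17, with the next PM2.5 value at 32.8 (gap over range 0.845). Hist2h2aa2 was at 17.9 CPM in the same library, with the next at 21 (0.935). Its copy Hist2h2aa1, with the same coding sequence, had 178 counts there and 92.5 to 100 in the other PM2.5 libraries. The division of reads between these copies is uncertain, and its part in this flag was not tested. Srcap was at 10.3 CPM in PBS replicate 10, with the next control at 7.79 (0.976).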

How the results depend on the processing

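No paired analysis was possible because the groups share no replicate number. No histone gene was called under any alternative run except the fit without a filter, where 1 replication-linked gene (Hist2h2aa1) passed. The cause was not tested. At 5 CPM only 3 replication-linked and 3 replacement genes were tested. The count over all genes was 483 with library totals, 174 with DESeq2 size factors, 226 with haemoglobin removed, 624 without a filter, 89 at 5 CPM, 371 with DESeq2, 0 with limma on log2(FPKM + 1) (716 unadjusted), 0 with an erythroid covariate (1116 unadjusted), 8 without PM2.5 replicates 17 and 18, 189 without PM2.5 replicates 9 and 21, and 31 to 192 with 1 library left out (31 without PBS replicate 10, 55 and 69 without PM2.5 replicates 17 and 18, 85 without PM2.5 replicate 21 and 87 without PBS replicate 4).

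Partner genes called were 2 of 55 with library totals, beside 483 of all 10361 genes, and 1 of 55 with haemoglobin removed (Atrx), beside 226 of 10329. Without a filter they were 2 of 58, beside 624 of 18035, and at 5 CPM 2 of 12 (Atrx and Srcap), beside 89 of 1793. DESeq2 called 2 of 58, beside 371 of 18014. Without PM2.5 replicates 9 and 21, 1 of 56 was called (Cdt1), beside 189 of 11018, and 0 to 1 with 1 library left out. Median log2 fold changes moved with the scaling. For replication-linked genes they moved to -0.33 (totals), -0.045 (haemoglobin removed) and -0.18 (limma). For replacement genes they moved to -0.49, -0.27 and -0.33, and to -0.037 with the erythroid covariate. For partner genes they moved to -0.50, -0.28 and -0.29. At 5 CPM the medians were -0.17 for the 3 replacement genes tested and -0.15 for the 12 partner genes tested, which are smaller sets of genes. The median of all genes moved as well with totals, haemoglobin removal and limma (-0.52, -0.30 and -0.28, from 0.04), but not at 5 CPM (0.04).

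Named genes changed sign as follows. With library totals: H2afv -0.45, H2afx -0.53, H2afz -0.32, H3f3a -0.31, H3f3b -0.59, Hist1h1c -0.42, Hist1h2bc -0.11, Hist2h2aa2 -0.17, Hist1h4m -0.35, Hist1h4i -0.066, Hist1h2ac -0.34, Hist1h2ap -0.055, Hist3h2a -0.33, Hist1h2be -0.27, Hist1h2bq -0.10, Asf1a -0.016 and Pola1 -0.0046. With haemoglobin removed: H2afv -0.23, H2afx -0.31, H2afz -0.084, H3f3a -0.087, H3f3b -0.34, Hist1h1c -0.17, Hist1h4m -0.089, Hist1h2ac -0.076, Hist3h2a -0.097 and Hist1h2be -0.036. With limma: H2afx -0.27, H2afz -0.26, H3f3a -0.29, H3f3b -0.53, Hist1h1c -0.39, Hist1h2bc -0.14, Hist2h2aa2 -0.17, Hist1h4m -0.25, Hist1h4i -0.036, Hist1h2ac -0.18, Hist1h2ap -0.061, Hist3h2a -0.18, Hist1h2bq -0.30 and Asf1a -0.038. With the erythroid covariate: H2afv -0.081, H2afx -0.27, H3f3a -0.072 and Npat 0.0060. At 5 CPM: H3f3b -0.17 and Hist1h1c -0.019; without a filter: H3f3b -0.0038. Without PM2.5 replicates 17 and 18: H3f3a -0.00074; without 9 and 21: Hist1h4c 0.0059 and Hist1h2ah 0.076. With 1 library left out, H2afj ran from -0.24 to 0.061, H2afv from -0.043 to 0.17, H2afx from -0.093 to 0.18, H3f3b from -0.086 to 0.087, Hist1h3e from -0.22 to 0.0093 and Hist1h4c from -0.20 to 0.21. The cause was not tested. Depth limits the low members: 38 of the 63 tested had a mean under 1 CPM.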
